A study of Mus musculus and synthetic RNA with 74 samples.

Results

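The RNA folds described here are hairpins in which the nucleotide 1 or 2 positions downstream of the adenosine methylated by METTL16 was looped out of the stem as a 1-nt bulge. They came from an in vitro methylation of a randomized 30-nt RNA library, in which 11 random bases preceded and 10 random bases followed the fixed nonamer UACAGAGAA at positions 12 to 20. The methylated adenosine is position 15, so that a bulge at position 16 is a looped-out G and a bulge at position 17 is a looped-out A. A fold was a member if its predicted structure had exactly 1 hairpin loop and if position 16 or 17 was unpaired between neighbours stacked in a single helix. Of the 36835 structures in the table, 495 were members, 20 with the bulge at 16 and 475 with the bulge at 17, while 1 further structure with the bulge at 16 and 78 with the bulge at 17 were left out because their number of hairpin loops was not 1. The positions were chosen by the m6A-IP to input values of these same 4 libraries, so that the comparisons of m6A-IP with input given for the members are a description of those values and not an independent test of them.

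METTL16 is an m6A writer, an enzyme that transfers a methyl group from S-adenosylmethionine (SAM) to the N6 position of an adenosine in RNA. Its known substrates are the U6 snRNA and hairpins of the MAT2A mRNA, which encodes the enzyme that makes SAM, and the nonamer comes from the first of the MAT2A hairpins. In a hairpin, the 5′ arm of the stem (the opening strand) pairs with the 3′ arm (the closing strand) around a loop, and a bulge is an unpaired base on one arm that has no unpaired base opposite it.

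Recombinant full-length human METTL16 and SAM were incubated with the RNA library in duplicate reactions. Input libraries were made from an aliquot of the reacted RNA taken before enrichment, and m6A-IP libraries from the RNA that an m6A antibody pulled down. The 2 input and 2 m6A-IP libraries carry the replicate numbers 11 and 12. All 4 libraries contained the enzyme, and no library made without METTL16 was analysed here, so the m6A-IP values are relative to the input only. The reads were 20454163 and 18106811 for the inputs, 22118622 for m6A-IP replicate 11 and 1154715 for m6A-IP replicate 12. In that shallow library the median structure had 6 reads, against 95 to 114 in the other 3, and 843 structures had no read, among them 7 of the members.

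The table gives the predicted fold of each group of RNAs and not their bases, so the sequences below are the library RNA with the bases that the fold itself fixes. A base paired with A must be u and a base paired with C must be g, whereas the partners of U and G have more than one choice and are left as n, like the unpaired random bases. In the dot-bracket notation a dot is an unpaired base and the brackets are the opening and closing strands. Capitals mark A15 and the bulged base. The library itself is shown first, then the most strongly enriched fold on the opening strand and the most abundant fold on the closing strand for each bulge position. Being picked by unlike criteria, they illustrate the folds and are not a comparison of the strands.
Library RNA: nnnnnnnnnnnuacAgagaannnnnnnnnn
Bulge at 16 on the opening strand, fold ...........((((.(((...))))))). : nnnnnnnnnnnuacAGagaannunuugunn
Bulge at 17 on the opening strand, fold .............(((.(((....)))))) : nnnnnnnnnnnuacAgAgaannnnuunnug
Bulge at 16 on the closing strand, fold (((((((....)))).)))........... : unuugunnnnnuacAGagaannnnnnnnnn
Bulge at 17 on the closing strand, fold (((((........))).))........... : unnugnnnnnnuacAgAgaannnnnnnnnn
On the opening strand A15 lies on the side of the bulge away from the hairpin loop, in the outer helix. On the closing strand A15 lies on the loop side, in the inner helix or the hairpin loop except in 8 folds with the bulge at 17, in 3 of which A15 was itself bulged. In all 20 folds with the bulge at 16, both neighbours of the bulge, A15 and A17, faced a fixed u. Because U can also pair with G, those RNAs can form the same stem with the bulge moved to 15 or to 17 and G16 in a wobble pair. With the bulge at 17 both neighbours are G, so the bases opposite them are not fixed.

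The 2 positions were unevenly represented. The folds with the bulge at 16 took 0.0332% (95% Wilson interval 0.0324 to 0.034) and 0.0331% (0.0323 to 0.0339) of the input reads, and 0.0575% (0.0565 to 0.0585) and 0.0591% (0.0549 to 0.0638) of the m6A-IP reads. The folds with the bulge at 17 took 0.623% (0.619 to 0.626) and 0.622% (0.618 to 0.626) of the input reads, and 0.951% (0.947 to 0.955) and 0.955% (0.937 to 0.973) of the m6A-IP reads. For both positions the share was higher in each m6A-IP library than in either input library, with no overlap of the intervals. These intervals cover counting error only.

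Per structure, values are reads divided by the authors' size factor, called normalised reads here, and each was tested with limma on log2(value + 5) at a Benjamini-Hochberg adjusted p of at most 0.1 over all structures. The size factors left the median of all structures at a log2 fold change of -0.27 in m6A-IP over input, against -0.06 when libraries were scaled to equal totals, and changes of the members are best read against that median. The 495 members had a median of 0.12 and a range from -2.02 to 3.02. Of them, 104 were enriched and 48 were depleted in m6A-IP, beside 12.5% of all structures enriched and 27.2% depleted. In 199 members both m6A-IP libraries were above both inputs, beside 25.3% of all structures, and in 125 both were below, beside 47.3%. Scaling to equal totals gave 177 enriched and 40 depleted members, so that 81.6% rather than 68.4% of the calls were enriched. The counts also depended on single libraries. They were 28 and 4 without input replicate 11 and 29 and 3 without input replicate 12. Without m6A-IP replicate 11 they were 173 and 178, and without m6A-IP replicate 12 they were 246 and 90. The median of all structures was -0.26, -0.27, -0.40 and -0.11 in the same order. The calls over all structures also moved with the scaling and with the library left out, as given in the last section. These member counts, and those of each class below, are therefore not a gain or loss particular to the members.

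Summed over its folds, the bulge at 16 had a log2 ratio of m6A-IP to input of 0.73 in replicate 11 and 0.43 in replicate 12 (mean 0.58, SD 0.21, n = 2). The bulge at 17 gave 0.55 and 0.21 (mean 0.38, SD 0.24, n = 2). Summed over all structures the ratio was -0.06 and -0.40 (mean -0.23, SD 0.24, n = 2), and the class sums are best read against those values. Each replicate placed 16 above 17, by 0.18 and by 0.22 (mean 0.20, SD 0.03, n = 2). With 2 libraries a side an exact permutation test cannot go below p = 0.33, so no p is given for any summed class. Leaving out the most abundant fold of each class widened the difference to 0.34. For these 2 positions the sums differed more between strands than between positions, although the strand classes were not matched in their stems. At 17 the bulge was the only interruption of the stem in 16 of 18 opening-strand folds and in 60 of 457 closing-strand folds. With the bulge at 15 the opening strand was not higher, at 1.44 and 1.06 against 1.55 and 1.24 on the closing strand. What the strand itself contributed was not tested. At position 17 the opening strand gave 1.09 and 0.78 (mean 0.94, SD 0.22, n = 2) and the closing strand 0.24 and -0.10 (mean 0.07, SD 0.25, n = 2). The opening strand was therefore higher by 0.85 and 0.89 (mean 0.87, SD 0.03, n = 2). At position 16 the opening strand gave 1.48 and 1.02 and the closing strand 0.38 and 0.19, a difference of 1.10 and 0.83 (mean 0.96, SD 0.19, n = 2). Within a strand the bulge at 16 remained above the bulge at 17, by 0.39 and 0.24 on the opening strand (mean 0.31, SD 0.11, n = 2) and by 0.14 and 0.30 on the closing strand (mean 0.22, SD 0.11, n = 2). Scaled to equal totals, the closing-strand sum for the bulge at 17 was 0.30 in both replicates, so the sign of its replicate 12 value depended on the scaling.

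Only 5 folds had the bulge at 16 on the opening strand, and 4 of them were enriched (80%, beside 12.5% of all structures). The fold shown above, with 4 outer and 3 inner base pairs and a 3-nt hairpin loop, had 46.2 and 50.9 normalised reads in the inputs and 484 and 381 in the m6A-IP libraries. Its log2 fold change was 3.02 (SE 0.19, limma adjusted p = 0.014), the highest of the 495 members. The fold ...........((((.(((....))))))) with a 4-nt loop had 65.4 and 48.5 in the inputs and 549 and 305 in m6A-IP, a change of 2.76 (SE 0.31, limma adjusted p = 0.014). In both folds every m6A-IP library stood well above both inputs. The shorter ............(((.(((....)))))). had 25.9 and 28.1 against 172 and 132 (log2 fold change 2.28), and the longer ..........(((((.(((...)))))))) had 53.4 and 45 against 239 and 166 (log2 fold change 1.92). The remaining fold, ...........((((.((......)))))), was also the most abundant of the 5, with 658 and 660 in the inputs and 923 and 700 in m6A-IP. Its log2 fold change of 0.28 did not pass (SE 0.18, limma adjusted p = 0.27). This fold differs from the one changed by 2.76 only in its innermost base pair, that of A19, which is open, leaving an inner helix of 2 pairs and a loop of 6 nt. The 4 enriched folds were also enriched without any one library.

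On the closing strand 15 folds had the bulge at 16 (median 0.09, range -0.66 to 1.73). Of these, 5 were enriched (33.3%, beside 12.5% of all structures) and 2 depleted (13.3%, beside 27.2%). The 15 folds divided by the length of the inner helix, the one between the bulge and the loop that holds A15. All 3 folds with 4 inner pairs were enriched (median 1.24), 2 of the 6 with 3 pairs were enriched and 1 depleted (median 0.47), and of the 6 with 2 pairs none was enriched and 1 was depleted (median -0.17). The loop length moved with it, since the median was 1.29 in the 2 folds with a 3-nt loop, 0.73 in the 4 with a 4-nt loop and -0.17 in the 6 with a 6-nt loop, and the contributions of helix and loop cannot be told apart in so few folds. The largest change was in .(((((((....))).)))).......... with 64.8 and 68.4 in the inputs against 229 and 236 in m6A-IP (log2 fold change 1.73, SE 0.16, limma adjusted p = 0.014). The most abundant fold, (((((((....)))).)))..........., had 465 and 486 against 894 and 755, a change of 0.78 (SE 0.16, limma adjusted p = 0.025). Opening its innermost pair, that of U12, gives ((((((......))).)))..........., with 450 and 436 against 313 and 250. That fold was depleted, with a change of -0.66 (SE 0.17, limma adjusted p = 0.044). The other depleted fold, (((((........)).)))..........., had 611 and 610 against 430 and 381, a change of -0.59 (SE 0.15, limma adjusted p = 0.041). The counts were 2 enriched and 0 depleted without input replicate 11, 3 and 0 without input replicate 12, 7 and 4 without m6A-IP replicate 11, and 8 and 3 without m6A-IP replicate 12, and the changes of 0.78, -0.66 and -0.59 did not pass when either input was left out.

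With the bulge at 17 on the opening strand there were 18 folds (median 0.90, range -0.30 to 2.17). Of these, 15 were enriched (83.3%, beside 12.5% of all structures) and none was depleted, beside 27.2%. In 16 of the 18 both m6A-IP libraries were above both inputs, beside 25.3% of all structures. The 2 folds that overlapped were those with a further bulge at position 13, and they had 1 and 5 reads in m6A-IP replicate 12. The most abundant member of all was in this class: .............(((.(......)))).. had 7203 and 7191 normalised reads in the inputs and 14527 and 12212 in m6A-IP (log2 fold change 0.89, SE 0.19, limma adjusted p = 0.027). It has only 4 base pairs, of which a single one lies between the bulge and the loop. The largest change was in the fold shown above, .............(((.(((....)))))), with 86.6 and 87.7 in the inputs and 496 and 340 in m6A-IP (log2 fold change 2.17, SE 0.22, limma adjusted p = 0.014). Among the folds with a mean of at least 100 normalised reads the next were ............((((.(((...))))))), with 296 and 301 against 1012 and 839 (log2 fold change 1.61), and .............(((.(((...)))))). with 251 and 293 against 931 and 672 (log2 fold change 1.53). These 3 changes also passed without any one library, whereas the change of 0.89 did not pass when either input was left out (limma adjusted p = 0.44 without input replicate 11 and 0.45 without input replicate 12).

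On this strand the folds with longer helices had the higher medians, up to an inner helix of 3 pairs. By the length of the inner helix, the median was 0.75 in the 5 folds with 1 pair, 0.92 in the 7 with 2 pairs and 1.58 in the 5 with 3 pairs, whereas the only fold with 4 pairs, ..............((.((((...)))))), had 0.58. It is one of the 3 folds with an outer helix of 2 pairs, in which A15 is the first base of the stem (median 0.58). The median was 0.89 in the 9 folds with 3 outer pairs and 1.19 in the 6 with 4 or more, all 6 of which were enriched. Every one of these bins holds under 20 folds. Without input replicate 11 or input replicate 12 only 5 folds passed, while the median stayed at 0.91 and 0.87. Without m6A-IP replicate 11 there were 15 enriched and 1 depleted (median 0.76), and without m6A-IP replicate 12 all 18 were enriched (median 1.11).

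The closing strand held most of the folds with the bulge at 17, 457 in all, and here folds were called in both directions. Of these, 80 were enriched (17.5%, beside 12.5% of all structures) and 46 depleted (10.1%, beside 27.2%). The median was 0.07 and the range -2.02 to 2.18. In 170 both m6A-IP libraries were above both inputs, beside 25.3% of all structures, and in 122 both were below, beside 47.3%. A15 was paired in 228 of these folds and unpaired in 229, of which 221 had it in the hairpin loop. With A15 unpaired the median was 0.20, with 52 enriched (22.7%) and 19 depleted (8.3%). With A15 paired it was -0.02, with 28 enriched (12.3%, near the 12.5% of all structures) and 27 depleted (11.8%). The folds were mostly low, with a median of 43.6 normalised reads and of 6 reads in m6A-IP replicate 12. The class counts were 17 and 4 without input replicate 11, 17 and 3 without input replicate 12, 147 and 173 without m6A-IP replicate 11, and 215 and 87 without m6A-IP replicate 12.

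In contrast to the opening strand, the closing-strand folds with the bulge at 17 had lower changes the more base pairs they held. The median was 1.32 in the 7 folds with 4 pairs, 0.62 in 56 with 5 pairs, 0.33 in 124 with 6 pairs, 0.03 in 158 with 7 pairs, -0.30 in 88 with 8 pairs and -0.63 in 24 with 9 pairs. The enriched and depleted folds numbered 27 and 0 at 5 pairs, 32 and 11 at 6 pairs, 12 and 11 at 7 pairs, and 3 and 19 at 8 pairs. The enriched share fell from 48.2% at 5 pairs to 3.41% at 8 pairs, beside 12.5% of all structures. The depleted share at 8 pairs, 21.6%, was under the 27.2% of all structures. The median at 8 pairs was near the -0.27 of all structures. The abundance fell along the same series, from a median of 120 normalised reads at 4 pairs to 26.1 at 9 pairs, and its part in the order was not tested. Among folds with a mean of at least 50 normalised reads the medians were 1.36, 0.52, 0.21, -0.02, -0.13 and -0.36 over the same series, for 6, 35, 69, 70, 22 and 2 folds. An inner helix of 4 or more pairs had the lowest values, with 17 of 31 folds depleted (54.8%, beside 27.2% of all structures), none enriched and a median of -0.63. With 1, 2 and 3 inner pairs the medians were 0.20, -0.02 and 0.13. With an outer helix of 4 or more pairs the median was -0.44, with 1 of 54 folds enriched and 15 depleted, a share of 27.8% that was near the 27.2% of all structures. With 1, 2 and 3 outer pairs the medians were 0.30, 0.03 and 0.35. Below 4 pairs neither helix alone gave a steady order.

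In 60 closing-strand folds the bulge at 17 was the only interruption of the stem. Of these, 2 were enriched (3.33%, beside 12.5% of all structures) and 21 depleted (35%, beside 27.2%), with a median of -0.44. Among all single hairpins 9.48% were enriched and 30.8% depleted, with a median of -0.36, so the depleted share and the median were near those. The other 397, with a further bulge or interior loop, had 78 enriched (19.6%) and 25 depleted (6.3%) members and a median of 0.17. Within the uninterrupted stems the median was 0.88 in 2 folds with 4 pairs, -0.08 in 13 with 5 pairs, -0.57 in 20 with 6 pairs, -0.67 in 17 with 7 pairs and -0.98 in 8 with 8 pairs, and all but the bin of 20 hold under 20 folds. The lowest change of the abundant folds was in (((((((.....)))).))).........., with 157 and 158 in the inputs against 50.5 and 41.6 in m6A-IP (log2 fold change -1.67, SE 0.19, limma adjusted p = 0.014). The fold ((((((......)))).))........... had 704 and 696 against 281 and 208 (log2 fold change -1.51, SE 0.19, limma adjusted p = 0.014). In both the m6A-IP libraries were below the inputs with no overlap. The most abundant of the class, (((((........))).))..........., had 2754 and 2723 against 2627 and 1837, a change of -0.32 that did not pass (SE 0.21, limma adjusted p = 0.29).

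In 67 closing-strand folds position 17 was flanked by a lone pair at 16 and a lone pair at 18. Of these, 28 were enriched (41.8%, beside 12.5% of all structures) and 1 depleted (1.49%, beside 27.2%), with a median of 0.60. Thus 28 of the 80 enriched closing-strand folds had this form. The closing-strand folds with 5 base pairs, whatever their form, had 48.2% enriched and a median of 0.62. What the lone pairs contributed apart from the number of pairs was not tested. Of the 4 largest changes among folds with a mean of at least 100 normalised reads, 3 were of this kind. The fold ..((..((.......).)..))........ had 86.1 and 85.9 in the inputs against 337 and 250 in m6A-IP (log2 fold change 1.70, SE 0.20, limma adjusted p = 0.014). The same arrangement with a 6-nt loop, ...((..((......).)..))........, had 168 and 146 against 513 and 347 (log2 fold change 1.40), and with an 8-nt loop, .((..((........).)..))........, it had 223 and 230 against 625 and 527 (log2 fold change 1.32). In these 3 folds A15 is the last base of the hairpin loop, and positions 19 and 20 lie in an interior loop. The fold ((.((((......))).).))......... had a change of 1.32 as well, from 70 and 66.1 to 168 and 187, with A15 paired in an inner helix of 3 pairs. These 4 changes also passed without any one library, whereas the depleted folds (((((((......))).))))......... and (((((((........).))))))....... (-1.26 and -1.13) did not pass without input replicate 11 and without input replicate 12, respectively.

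Moving the bulge along an otherwise identical stem keeps the number of base pairs and the loop length, and passes pairs from one side of the bulge to the other. The set around the most abundant closing-strand fold with the bulge at 16 held folds with the bulge at 14, 15 and 17, while none at 18 was listed. Its sequences are printed because only the bulged base and the bases opposite it change.
Bulge at 14, fold (((((((....)).)))))........... : ununuunnnnnuaCAgagaannnnnnnnnn
Bulge at 15, fold (((((((....))).))))........... : unungunnnnnuacAgagaannnnnnnnnn
Bulge at 16, fold (((((((....)))).)))........... : unuugunnnnnuacAGagaannnnnnnnnn
Bulge at 17, fold (((((((....))))).))........... : unnugunnnnnuacAgAgaannnnnnnnnn
With the bulge at 14 the inputs had 60.2 and 56.7 normalised reads and the m6A-IP libraries 31.7 and 27.7 (log2 fold change -0.87, limma adjusted p = 0.037). With the bulge at 15, which loops out the methylated adenosine itself, they had 905 and 931 against 3134 and 2502 (1.60, limma adjusted p = 0.014). With the bulge at 16 the change was 0.78, as given above, and with the bulge at 17 the values were 428 and 446 against 419 and 360 (-0.17, limma adjusted p = 0.45). The order in this stem was thus 15, 16, 17 and 14. When input replicate 11 or input replicate 12 was left out, the changes at 14 (limma adjusted p = 0.40 and 0.34) and at 16 (limma adjusted p = 0.37 and 0.33) did not pass.

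Over all such sets on the closing strand, moving the bulge from 16 to 17 was possible for all 15 folds and the log2 fold change was lower at 17 in 11 of them, with a median difference of -0.95 and a range from -2.17 to 1.65. In 10 pairs both replicates were lower and in 2 both were higher. The 4 exceptions, examined after their values were seen, were among the 6 folds with an inner helix of 2 pairs when the bulge was at 16. With the bulge at 15 in place of 17 the value was higher in 10 of 10 closing-strand pairs (median 1.54, range 0.32 to 2.37), in both replicates each time, and in 2 of 2 opening-strand pairs (median 0.60). Over these 12 pairs the median difference was 1.26 (SD over replicates 0.08). Between 16 and 15 no such order was seen, with 15 higher in 5 of 9 closing-strand pairs (median 0.10, range -1.49 to 1.12) and in 3 of 4 opening-strand pairs (median 0.43, range -0.60 to 0.79). Moving from 16 to 17 on the opening strand gave 3 pairs, of which 2 were lower (-0.97 and -1.60) and 1 was higher (0.43). The folds of a set share libraries and much of their sequence, so these counts carry no p.

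Closing or opening 1 base pair, again in otherwise identical folds, went with differences that varied by bulge position and strand. With one more pair closed at the hairpin loop the log2 fold change was higher in 8 of 9 opening-strand pairs with the bulge at 17 (median 0.38, range -0.83 to 1.25) and in 6 of 7 closing-strand pairs with the bulge at 16 (median 1.03, range -0.07 to 1.75). The only opening-strand pair with the bulge at 16 differed by 2.47. For the bulge at 17 on the closing strand it was lower in 75 of 109 pairs (median -0.26, range -1.61 to 3.01). With one more pair closed at the far end of the stem it was lower in 182 of 220 closing-strand pairs with the bulge at 17 (median -0.45, range -1.44 to 1.05), in both replicates in 140 of them, and higher in 4 of 7 on the opening strand (median 0.08). For the bulge at 16 it was lower in 4 of 6 closing-strand pairs (median -0.23), and in the 2 opening-strand pairs it was higher once and lower once (median -0.31). Among the single-hairpin structures that were not members, the value was higher with the extra pair at the loop in 42.9% of 13292 pairs (median -0.12), and with the extra outermost pair in 33.2% of 18609 pairs (median -0.22). The opening-strand folds and the closing-strand folds with the bulge at 16 therefore lay on the other side of that median for a pair added at the loop, as a description with no test of the difference.

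Bulges at the adjacent positions were described in the same way. Summed over the 194 single-hairpin folds with the bulge at 15, the log2 ratio was 1.48 in replicate 11 and 1.12 in replicate 12. Of these folds, 93 were enriched (47.9%, beside 12.5% of all structures) and 7 depleted (3.61%, beside 27.2%), with a median of 0.58. The 202 folds with the bulge at 14 gave -0.28 and -0.62, beside -0.06 and -0.40 over all structures. Of them, 10 were enriched (4.95%) and 67 depleted (33.2%), with a median of -0.32. All single hairpins had 9.48% enriched, 30.8% depleted and a median of -0.36, so the depleted share and the median at 14 were near theirs. No single-hairpin fold with a bulge at 18 was listed. The sums for 16 (0.73 and 0.43) and 17 (0.55 and 0.21) lay between those for 15 and 14 in each replicate. These classes differed in strand. The opening strand held 167 of the 194 folds at 15 and 194 of the 202 at 14, but 5 of 20 at 16 and 18 of 475 at 17. On that strand the sums were 1.44 and 1.06 at 15, 1.09 and 0.78 at 17, and -0.27 and -0.62 at 14. On the opening strand alone the bulge at 16 gave 1.48 and 1.02, close to the sums for 15. These values were lowered by the single abundant fold with an inner helix of 2 pairs, which had 0.49 and 0.09. The other 4 folds, all with 3 inner pairs, summed to 2.92 and 2.51. They were set apart after their values were seen, and the folds with the bulge at 15 include other stem lengths. These sums are therefore not a like comparison with those for 15. In identical stems on the opening strand the bulge at 15 was higher than the bulge at 16 in 3 of 4 pairs, as given above.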

How the data were processed

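Reads were demultiplexed and trimmed with cutadapt 1.9.1, kept at 30 nt with an intact nonamer, and folded with RNAfold (minimum free energy), per the study's methods. The deposited table holds a normalised signal, the reads of each predicted structure divided by a DESeq2 (1.18.1) size factor by the authors, in 2 input and 2 m6A-IP libraries. All RNAs with the same fold are pooled in a value. In each library every value was a whole multiple, within 0.01 of a read, of a single step (0.519, 0.585, 0.459 and 6.93), and reads and depth were taken from that step. The rule for members was applied to the dot-bracket string.

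m6A-IP was compared with input in limma 3.58.1 (R 4.3.3; trend, no block) on log2(value + 5) over all 36835 structures, without a filter on low values, and was tested on simulated data. Class sums were compared as log2 ratios of same-numbered libraries. The duplicates were separate reactions of a single RNA pool, and the limma errors measure the spread between their libraries. The labels do not tie a replicate number to one reaction. The SD of a class sum is therefore the spread between ratios of same-numbered libraries, and not a known spread between reactions. Structures named singly were the 4 largest and 4 smallest changes per strand with a mean of at least 100 for the bulge at 17, the 6 most abundant for the bulge at 16, the most abundant of each class, and its folds with the bulge moved. Other members of the 3 classes with at most 20 folds, and folds differing by 1 base pair, were named after their values were seen. The members, classes and lists were chosen with earlier results of these data known. The fold is predicted and not measured, and bases fixed by pairing were derived here. The mouse embryo libraries of the series, 31 at E2.5 and 39 at E3.5, were not used here.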

Additional observations from a re-analysis of the deposited data

How the results depend on the processing

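Count models (edgeR and DESeq2), planned as alternatives, were not run, since the deposited values are normalised and the reads recovered from them did not meet the criterion set for a count test. Scaling to equal totals changed the number of enriched structures from 4621 to 8299 over all structures and from 104 to 177 over the members, the median for the bulge at 16 from 0.47 to 0.70, and the summed log2 ratios from 0.58 to 0.82 (bulge at 16) and from 0.94 to 1.17 (bulge at 17, opening strand). A mean of at least 50 left 2937 enriched structures, 28 depleted members (48 without the filter), a median of 0.59 for the bulge at 16 and a median of 1.54 for 15 minus 17 in identical folds (1.26 without it), where fewer structures were tested. A pseudocount of 1 or 20 gave 0.49 and 0.43 for the median of the bulge at 16, and a pseudocount of 20 gave 1.15 for 15 minus 17. Folds with no other bulge or interior loop gave a summed value of -0.25 for the bulge at 17 on the closing strand. The value was 0.07 for all folds of that class and -0.23 for all structures of the library. Such uninterrupted folds gave 0.16 for 16 minus 17 (0.20 for all folds) and 1.19 for opening minus closing (0.87 for all folds). Any number of hairpin loops gave 0.83 for opening minus closing, and leaving out the most abundant structure gave 0.34 for 16 minus 17. Apart from the number of structures tested with the filter, the cause of these shifts was not tested.

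Leaving out 1 library at a time, the enriched structures ranged from 855 to 11188 over all structures and from 28 to 246 over the members, the depleted structures from 1994 to 20642 and from 3 to 178, and the median for the bulge at 16 from 0.46 to 0.51. The lone library of a side was then taken to vary like the other pair. Of 51 structures followed singly, 18 no longer passed without input replicate 11 and 17 without input replicate 12, while none lost its call without either m6A-IP library. The fold ..........((.(((.((....))))))), with 1 read in m6A-IP replicate 12, had -0.30 with all libraries, ranged from -1.04 to 0.45 with 1 library left out, and was called enriched (0.45) without that library.

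Replicates with the same number did not deviate together (r = 0.02 over 36835 structures), and the labels do not say that a number marks a shared reaction. A fit with the replicate number as a replicate block gave 4282 enriched and 10863 depleted structures in all, and 104 enriched and 61 depleted members, and changed no call of the 51 structures.

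Depth limits the m6A-IP replicate 12 values, where 1 read is worth 6.93 normalised reads and the median structure had 6 reads.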
